A study of Mus musculus with 12 samples.

Results

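Livers of wild-type C57BL/6 mice collected at ZT22 were compared with the livers of all other times of the day, at the level of poly(A) RNA. ZT0 is lights on, so ZT22 lies near the end of the dark phase. The ZT22 livers are 2 of the 12 samples and were chosen by their labels, 1 from each of 2 series of 6 time points (ZT2, ZT6, ZT10, ZT14, ZT18 and ZT22). All mice were adult (3 to 6 months), had no treatment or mutation, and had lived under 12 hr of light and 12 hr of dark for at least 2 weeks; the methods of the study add that they were males. The deposited columns of this time are headed ZT20, whereas the sample titles give ZT22. The labels do not say whether a sample is the liver of 1 mouse, and each sample is called a liver below. Unless said otherwise, the p-values measure the spread between the 2 samples of the same time, pooled over the 6 times. Levels are coverage in reads per base pair (rpbp), summed over the exons of a gene, divided by their length and set to a scale of 40000000 uniquely mapped sequences. Of the 20069 genes in the file, 10198 had at least 1 of the 12 values above 8 rpbp and were tested. The signal summed over all genes was 1487470 to 1546120 rpbp per sample.

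In the liver, the clock is a transcriptional loop in which BMAL1 (gene *Arntl*) with CLK or NPAS2 drives *Per* and *Cry* genes, whose products shut off BMAL1 in turn. REV-ERB and ROR receptors act on *Arntl* itself, and the PAR bZIP factors DBP, TEF and HLF pass the rhythm on to enzymes of detoxification and metabolism. The end of the night is the time at which nocturnal mice finish their main feeding period, and BMAL1 activity is low while *Arntl* mRNA is near its daily maximum.

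The samples had the composition of liver. Albumin mRNA (*Alb*) was at 98986 and 93174 rpbp in series 1 and 2 at ZT22 and 50445 to 122523 with a median of 107257 in the 10 other livers. The summed level of 8 Kupffer cell markers was 443 and 568 rpbp at ZT22 and 373 to 717 in the other livers. That of 6 neutrophil markers was 5.20 and 22.04 against 2.68 to 21.5. Of these 6, *Mpo*, *Ngp*, *Camp* and *Ltf* were at 0 in series 1 of ZT22, and *Mpo* was at 0 in series 2 too. In bulk tissue, fewer cells of a type and less RNA per cell cannot be told apart. The ZT2 livers stood apart from the rest. *Moxd1* mRNA was at 246 and 229 rpbp at ZT2 and at most 0.320 in any other liver, and the acute-phase mRNA *Saa1* was at 14312 and 12918. ZT2 is part of the comparison below, so the counts of genes and of list members are also given without it; the cause of its difference was not tested.

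A first view of ZT22 counts the genes for which both ZT22 livers lay outside the other 10. Both values were above all others for 219 genes (2.15%) and below all others for 157 (1.54%). This was the lowest total of the 6 times, 376 genes against 448 for the pair of ZT18 livers, 666 for ZT14, 699 for ZT10, 935 for ZT6 and 2033 for ZT2. Without the ZT2 livers the order changed. ZT22 then had 527 genes above and 490 below all 8 other livers, more than ZT10, ZT14 and ZT18 and fewer than ZT6, which had 1177 in both directions. For the genes added, at least 1 ZT2 liver reached or passed a ZT22 value. These counts are a description and come from no test.

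**Figure D1:**
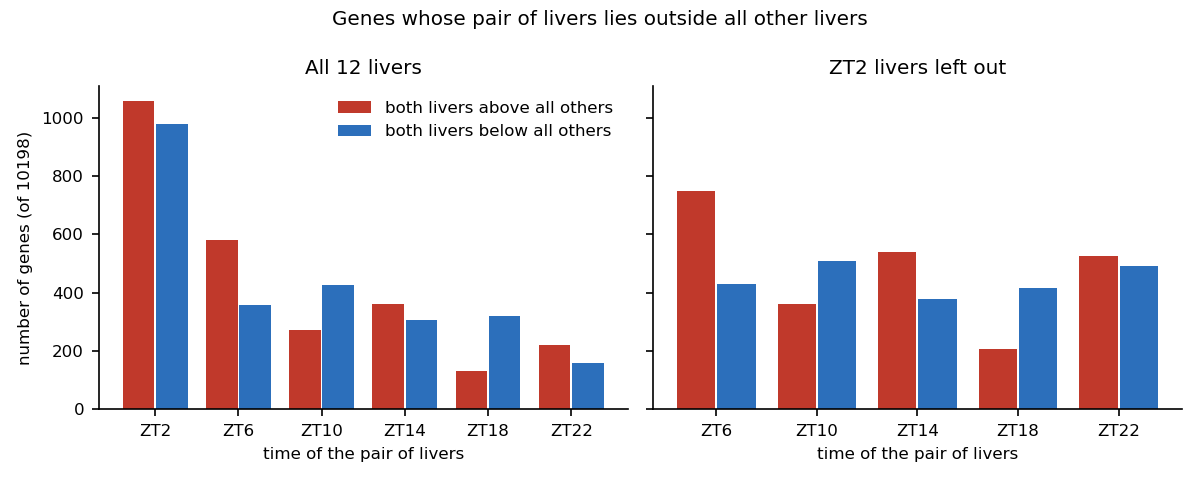
Number of genes (of 10198) for which both livers of a time lay above (red) or below (blue) all other livers, with all 12 livers (left) and without the ZT2 livers (right). ZT22 had 219 and 157 genes on the left, the lowest total of the 6 times, and 527 and 490 on the right.

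In the test of ZT22 against the mean of the 5 other times (limma, Benjamini-Hochberg adjusted p below 0.05), 91 genes were higher (0.892% of those tested) and 63 were lower (0.618%). Of these, 44 and 17 also had both ZT22 values outside all 10 others. At an unadjusted p under 0.05, 806 genes were higher and 773 lower, the background for the counts at that threshold in the lists below. Another 7 of the 154 are second names of a called gene (*bmal1b* of *Arntl*, for example), which leaves 147. Among the 91 higher genes, the highest mean outside ZT22 was at ZT18 for 41 and at ZT2 for 38, and the lowest was at ZT10 for 48 and at ZT6 for 26. For 75 of them ZT22 had the highest of the 6 means, and for the others a mean at another time lay above it, at ZT2 for 8, ZT18 for 7 and ZT6 for 1. Only 26 of the 63 lower genes had their lowest mean at ZT22, while 33 had it at ZT2. The genes were chosen by their ZT22 level, which favours an extreme there, and these counts were not made for all genes tested. Most of the 154 genes lost their call when either of the ZT22 livers was left out, and some genes called then were not among the 154. The count rests on the design. It was 169 higher and 193 lower without the ZT2 livers, with 145 of the 154 genes still called in the same direction, and 46 and 42 without the series 1 liver of ZT22. Without the series 2 liver it was 8 and 12, it was 75 to 94 in all without 1 liver of ZT2 or ZT6 or series 1 of ZT18, and it was 0 when the 10 other livers were taken as a single group (534 genes at an unadjusted p under 0.05 in that limma fit).

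The genes with the largest increase at ZT22, among those called and separated from all other livers, began with *Clic3* (chloride intracellular channel), which was at 11.4 and 58.1 rpbp in series 1 and 2 and 0.200 to 9.76 with a median of 3.18 in the 10 other livers. Its log2 difference on the scale log2(rpbp + 1) was 2.94 ± 0.47 (SE; adjusted p = 0.0199), and the ZT22 livers themselves differed 5.11-fold. Without series 2 of ZT22 the difference was 1.81 and was not called (adjusted p = 0.141), and without series 1 it was 4.07. *BC029214* was at 55.04 and 128 against 12.7 to 37.6 with a median of 24.1. Its gene (chr2:25310661-25316614, mm9, minus strand) contains *Clic3* (chr2:25312358-25314296, plus strand), and since strand was not used in the counting, the 2 cannot be told apart. The log2 difference of *BC029214* was 1.77 ± 0.27 (adjusted p = 0.0162) and 1.17 without series 2 of ZT22. *Ppard*, the nuclear receptor PPARδ, was at 21.3 and 29.8 rpbp against 3.12 to 18.7 with a median of 6.84, a 3.08-fold higher mean (log2 difference 1.68 ± 0.20, adjusted p = 0.00594). The rule requires both ZT22 values to lie above the others, of which the highest was 18.7 rpbp in series 2 at ZT18.

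Other genes with a large increase followed. *Chka* (choline kinase α, the first step from choline to phosphatidylcholine) was at 36.5 and 38.1 rpbp at ZT22 and 4.12 to 36.2 with a median of 16.2 in the other livers. This is a 2.40-fold higher mean, with a log2 difference of 1.54 ± 0.11 (adjusted p = 0.000388). The highest of the other values, at ZT18 in series 2, lay close to both ZT22 livers. *Tsc22d1*, a leucine zipper regulator of transcription, showed a different shape. It was at 186 and 120.4 rpbp at ZT22, at 57.2 and 53.8 at ZT18 and 40.9 to 82.4 with a median of 64.1 over all other livers (log2 difference 1.23 ± 0.19, adjusted p = 0.0165). *Slc30a10* (a metal ion exporter) was at 80.8 and 67.8 against 15.2 to 58.9 with a median of 35.6, and *Cd9* (a tetraspanin of the cell surface) at 33 and 39.3 against 11.9 to 31 with a median of 16.8.

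The other members of this group stayed below 35 rpbp in all livers. *C1ql3*, which encodes a secreted protein of the C1q family, was at 10.04 and 10.6 rpbp at ZT22 and 3.40 to 5.80 with a median of 4.36 elsewhere, so that ZT22 was the only time with a value above 6 rpbp. *Dtx4* (a Deltex ubiquitin ligase) was at 27.1 and 24.2 against 4.16 to 20.8 with a median of 12.7, and *Hapln4* (a hyaluronan link protein) at 12.7 and 21.2 against 4.56 to 10.7 with a median of 7.82. The transcript *AK185715* was at 31.6 and 31.4 against 9.52 to 22.5 with a median of 12.2, with values of 12.2 and 9.52 at ZT18. Their log2 differences were 1.05 ± 0.17, 1.09 ± 0.14, 1.00 ± 0.18 and 1.12 ± 0.16, with adjusted p-values between 0.0104 and 0.0333. Without series 2 of ZT22 *Hapln4* was at 0.65.

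The genes with the largest decrease, by the same rule, were led by *Upp2* (uridine phosphorylase 2, which degrades uridine). It was at 38.4 and 46 rpbp at ZT22 and 47.2 to 693 with a median of 239 in the 10 other livers, a 5.88-fold lower mean (log2 difference −2.12 ± 0.22, adjusted p = 0.00261). The nearest values were those of ZT2, at 64.8 and 47.2, so that ZT22 was separated from ZT2 by little. *BC019819* was at 122 and 136 against 209 to 1019 with a median of 331, a 3.60-fold lower mean (log2 difference −1.59 ± 0.17, adjusted p = 0.00375). *Cyp39a1*, which hydroxylates oxysterols on the way to bile acids, was at 2.48 and 3.96 against 4.76 to 12.1 with a median of 8. Its ZT18 values were 12.1 and 7.80. *Mcm10*, a factor of DNA replication, was at 16.04 and 16.7 against 18.96 to 38.8 with a median of 35.1, with ZT14 (18.96 and 29.2) and ZT18 (23.1 and 19.2) nearest.

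*Psmb5* encodes the proteasome subunit with chymotrypsin-like activity and was the 1 gene called lower at ZT22 than at both neighbouring times, a call that was lost against ZT18 with the replicate block or without the ZT2 livers. It was at 108 and 113 rpbp at ZT22, 199.8 and 185 at ZT18 and 189 and 174 at ZT2, and 132 to 204 with a median of 179.5 over the 10 livers. The 2 ZT22 livers were close to each other. They lay below every other liver, which the rule for these genes requires. Its log2 difference was −0.65 ± 0.09 against the other times (adjusted p = 0.0115), −0.79 ± 0.11 against ZT18 (adjusted p = 0.0383) and −0.71 ± 0.11 against ZT2 (adjusted p = 0.0151). *Fbxo31* (an F-box protein of a ubiquitin ligase) was at 17.3 and 15.7 against 21.5 to 34.6 with a median of 28.1, and *Klhl21* (an adaptor of a cullin ubiquitin ligase) at 18.04 and 18.2 against 22 to 36.96 with a median of 26.6. *Adi1*, an enzyme of methionine salvage, was at 196 and 155 against 199 to 381 with a median of 288, and the receptor gene *Gpr146* at 38.9 and 50.5 against 52.8 to 107 with a median of 70.4. *Kctd15*, *AK003573* and *AK015714* completed the 12, with log2 differences of −0.85 ± 0.13, −0.78 ± 0.13 and −0.71 ± 0.12. Of the genes with the largest increase or decrease given here, *Chka*, *Upp2* and *BC019819* were still called when either one of the ZT22 livers was left out, and each of the others lost its call without at least 1 of them.

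**Figure D2:**
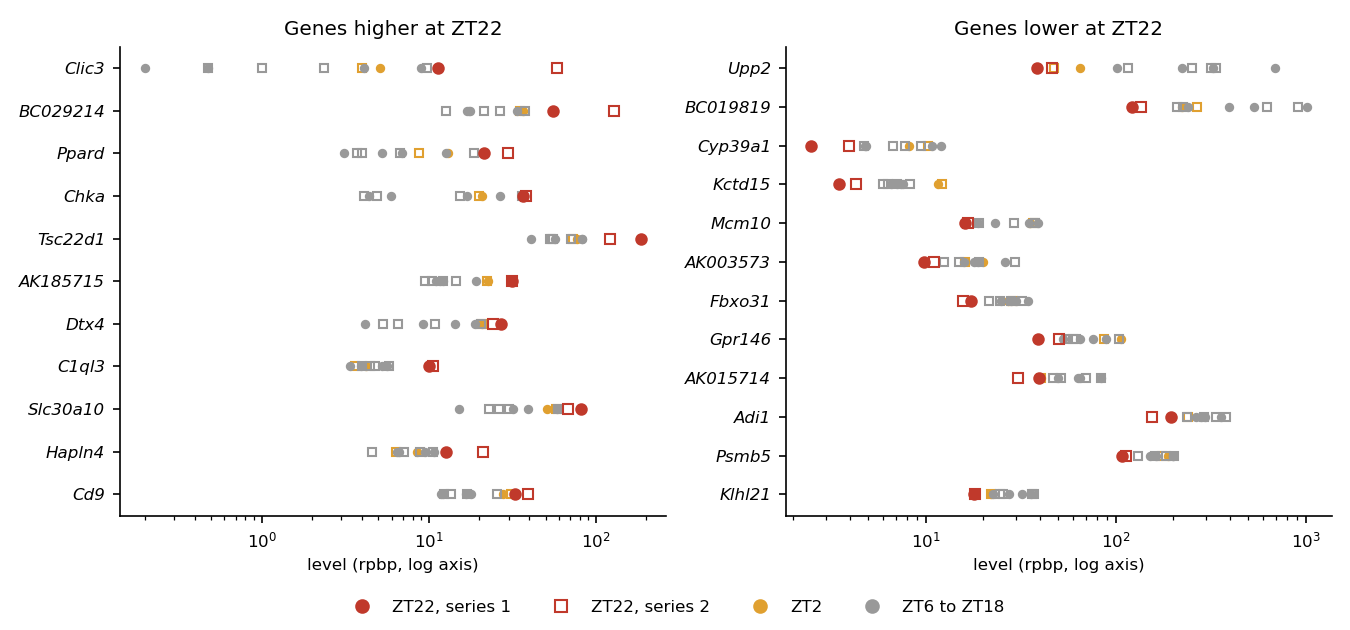
Levels (rpbp, log axis) in each of the 12 livers of genes with the largest increase (left) and the 12 with the largest decrease (right) at ZT22, by the rule in the text. Red marks the ZT22 livers (filled, series 1; open, series 2), orange ZT2 and grey ZT6 to ZT18. *Clic3* is the gene whose red points lie farthest apart, at 11.4 and 58.1 rpbp.

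The positive arm of the clock was high at ZT22. In a list of 6 genes, made of this arm, the ROR receptors and the repressor *Nfil3*, 4 were called higher (3 of them besides *Nfil3*) and 0 lower, and the median log2 difference was 0.80, beside 0.00 over all genes tested. Without the ZT2 livers 4 were higher and 1 was lower. *Arntl* (BMAL1) was at 25.8 and 27.7 rpbp at ZT22 and 1.12 to 29.4 with a median of 10.3 in the other livers, a log2 difference of 1.52 ± 0.20 (adjusted p = 0.0115). Both ZT22 livers were high, but the groups overlapped, since ZT18 was at 23.5 and 29.4 and ZT2 close below at 23.6 and 22.2. *Npas2*, which takes the place of CLK in the dimer, was at 10.2 and 6.36 at ZT22 and lay above all 10 others, the next being 4.60 at ZT18. It was at 0 and 0 at ZT14, so the log2 difference of 2.19 ± 0.39 (adjusted p = 0.0323) depends on the pseudocount. *Nfil3*, whose product binds the same D-box as the PAR bZIP factors, was at 78 and 87.4 against 17.1 to 78.8 with a median of 48.4, a difference of 1.06 ± 0.11 (adjusted p = 0.00282). *Clock* was at 38.2 and 36.96 against 16.2 to 39.8 with a median of 27.2 and had the smallest difference of the 4 called, 0.54 ± 0.07 (adjusted p = 0.0115). The receptor gene *Rora* was at 23.6 and 24.8, above all other livers, which ran from 13.2 to 22.4 with a median of 19.7, but was not called (adjusted p = 0.0810).

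Among clock repressors both directions were found. Of 9 tested, 4 fell (*Per2*, *Per3*, *Cry2* and *Nr1d2*), *Cry1* rose and 4 were not called, with a median of −1.08. Without the ZT2 livers 6 were lower and 0 higher, with a median of −1.52. *Per3* was at 1.08 and 1.28 rpbp at ZT22 and 0.280 to 23.5 with a median of 14.4 in the other livers, 10.3-fold lower in the mean (log2 difference −2.03 ± 0.15, adjusted p = 0.000388), with the ZT2 livers lower still at 0.280 and 0.480. *Per2* was at 7.12 and 6.88 against 3.24 to 40.04 with a median of 18.5, a difference of −1.08 ± 0.10 (adjusted p = 0.00207), and *Nr1d2* (REV-ERBβ) at 13.4 and 19.2 against 15.04 to 103 with a median of 41.02, a difference of −1.38 ± 0.13 (adjusted p = 0.00207). *Nr1d1* (REV-ERBα) was at 10.5 and 14.5 and was not called (adjusted p = 0.108), with ZT18 at 4.08 and 3.84 and ZT2 at 46 and 42.5. *Cry1* had its maximum at ZT18 (49.4 and 51 rpbp) and was at 37.8 and 26.2 at ZT22, a log2 difference of 0.78 ± 0.13 from the mean of the other times (adjusted p = 0.0279, and 0.0816 without the ZT2 livers). The 2 ZT22 livers of *Cry1* lay between the ZT10 and ZT18 values.

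Fixed windows before the start sites of 4 clock and ZT22 genes, and 30 bases of *Arntl*, are shown because they hold the motifs that clock factors are known to bind. The sequences are those of RefSeq (GRCm38.p6) and each matched 1 place in mm9, which is given with the strand. Capitals mark the motif: the E-box CACGTG in *Cry1* (bases 191 to 196) and *Tsc22d1* (bases 218 to 223), the D-box TTANNTAA in *Per3* (bases 46 to 53 and 93 to 100), both in *Tef* (D-box at 77 to 84, E-box at 124 to 129), and the ROR element in *Arntl*. The first 4 runs are the 250 bases before the start site, and the *Arntl* run begins after it.
*Cry1*, chr10:84647800-84648049, minus strand: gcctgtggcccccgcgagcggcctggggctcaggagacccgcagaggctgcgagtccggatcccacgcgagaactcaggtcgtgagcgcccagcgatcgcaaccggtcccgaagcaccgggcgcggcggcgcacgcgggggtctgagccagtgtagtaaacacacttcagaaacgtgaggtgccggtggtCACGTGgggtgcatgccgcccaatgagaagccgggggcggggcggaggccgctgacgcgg
*Tsc22d1*, chr14:76815378-76815627, plus strand: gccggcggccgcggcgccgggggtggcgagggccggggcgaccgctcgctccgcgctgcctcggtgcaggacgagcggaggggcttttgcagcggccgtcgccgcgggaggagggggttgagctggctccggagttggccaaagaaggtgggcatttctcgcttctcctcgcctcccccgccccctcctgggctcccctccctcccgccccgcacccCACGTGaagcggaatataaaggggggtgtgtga
*Per3*, chr4:150418775-150419024, minus strand: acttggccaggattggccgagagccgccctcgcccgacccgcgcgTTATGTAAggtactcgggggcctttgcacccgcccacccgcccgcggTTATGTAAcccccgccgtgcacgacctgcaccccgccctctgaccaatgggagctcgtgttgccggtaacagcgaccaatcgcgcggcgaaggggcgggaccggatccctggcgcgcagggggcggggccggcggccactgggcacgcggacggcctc
*Tef*, chr15:81632853-81633102, plus strand: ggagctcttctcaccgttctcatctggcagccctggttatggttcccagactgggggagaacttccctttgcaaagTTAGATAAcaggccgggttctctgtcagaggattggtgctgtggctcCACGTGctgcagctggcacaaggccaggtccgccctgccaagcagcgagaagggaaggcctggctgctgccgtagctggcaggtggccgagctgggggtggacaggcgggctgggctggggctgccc
*Arntl*, chr7:120351041-120351070, plus strand: gggaaggcagAAAGTAGGTCAgggacggag

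Over both strands of 300 bases around the start (250 before and 50 after), the E-box was in 7.15% of all 32851 RefSeq promoters and 10.3% of the 8749 promoters of genes tested here. It was in 12.2% of the 90 promoters of genes called higher at ZT22 and 9.43% of the 53 of genes called lower. The D-box was in 6.003%, 3.83%, 2.22% and 7.55% of these 4 sets, the last being 4 promoters. The ROR element was in 0.384% of all promoters and, among the genes called, in 1, that of *Arntl*. The E-box shares of the called genes thus lay near that of all genes tested. A match is a description of the letters and not a binding site.

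Clock output genes were low. Of 13 PAR bZIP factors and output genes, 8 fell, 0 rose (limma; 1 had an unadjusted p under 0.05 in that direction) and the median log2 difference was −1.17. The count was 8 and 0 without the ZT2 livers too. *Dbp* was at 1.48 and 2.40 rpbp at ZT22 and 1.96 to 241 with a median of 18.02 in the other livers, 34.8-fold lower in the mean (log2 difference −3.09 ± 0.22, adjusted p = 0.000388), with ZT2 at 1.96 and 3.80. *Tef* was at 25.2 and 23.6 against 16.7 to 142 with a median of 90.3, a difference of −1.47 ± 0.10 (adjusted p = 0.000388), and *Hlf* at 35.7 and 34.9 was not called (adjusted p = 0.519). *Usp2* (a ubiquitin-specific protease) was at 1.04 and 1.24 against 0.760 to 30.96 with a median of 15.6, 12.4-fold lower, and *Wee1* (a kinase that holds back mitosis) at 3.44 and 2.80 against 1.64 to 26.1 with a median of 18.6, 5.09-fold lower. *Por*, the electron donor of the microsomal cytochromes P450, was at 106 and 125 against 104 to 524 with a median of 288, a difference of −1.17 ± 0.13 (adjusted p = 0.00426). *Inmt* (a methyltransferase of indolamines) and *Pbef1* (now *Nampt*, the rate-limiting enzyme of NAD salvage) fell by 0.62 and 0.67 on the log2 scale. For *Dbp*, *Tef*, *Per3*, *Usp2* and *Wee1* the ZT22 livers lay below every liver of ZT6 to ZT18, and overlap came from ZT2 alone.

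**Figure D3:**
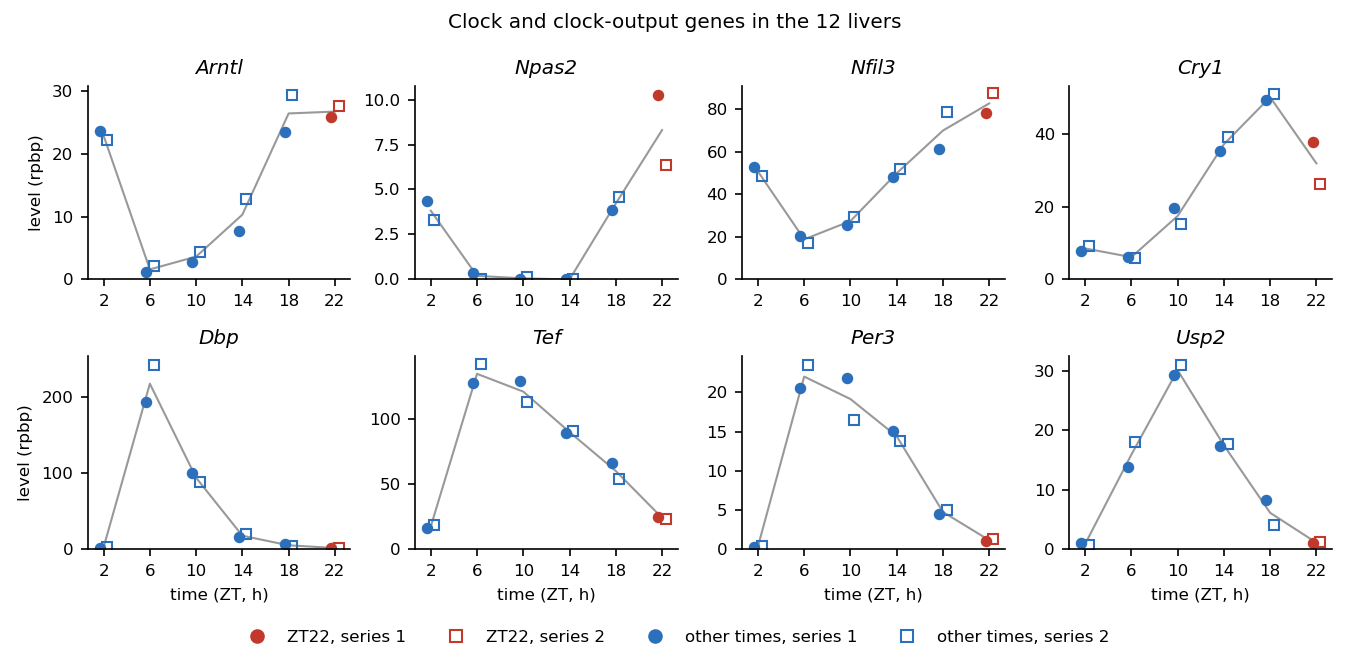
Levels (rpbp) of 8 clock and clock-output genes against time (ZT, hr) in each liver (filled circles, series 1; open squares, series 2; red, ZT22; the line joins the means of n = 2). At ZT22 *Arntl*, *Npas2* and *Nfil3* were high, *Cry1* was past its ZT18 maximum of 49.4 and 51 rpbp, and *Dbp*, *Tef*, *Per3* and *Usp2* were near their lowest values.

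Among genes of detoxification, 3 of 20 fell and 0 rose, with a median of −0.18. At an unadjusted p under 0.05 (limma), 8 were lower and 0 higher. Without the ZT2 livers 6 were lower and 0 higher, and the median was −0.43; with 1 liver left out it was between −0.43 (without series 1 of ZT22) and −0.11 (without series 2). *Nr1i3* (CAR, the receptor that switches on many drug-metabolizing enzymes) was at 136 and 122 rpbp at ZT22, below every liver of ZT6 to ZT18 and above ZT2. The 10 other livers ran from 54.8 to 252 with a median of 232 (log2 difference −0.43 ± 0.07, adjusted p = 0.0165). It shares sequence on the opposite strand with *Tomm40l* (85.5 and 79.2 rpbp), and the counting did not use strand. *Cyp2a5* was at 423 and 378 against 176 to 4365 with a median of 1395 (adjusted p = 0.0495), and *Gsta2* at 7.40 and 4.80 against 2.56 to 37.2 with a median of 11.3 (adjusted p = 0.0392). Both have near-identical paralogs, among which only uniquely mapped sequences were counted.

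Few metabolic genes were called. At an unadjusted p under 0.05 (limma), 11 of 29 genes of fatty acid oxidation were lower and 1 was higher. Of 18 of bile acid synthesis and transport, 7 were higher and 1 was lower. In gluconeogenesis and amino acid breakdown (26 genes) 4 were higher and 7 lower. In glycogen (12) it was 1 and 1, and in the glucocorticoid and insulin response (22) 3 and 4. Over all 10198 genes tested, 806 were higher and 773 lower. *Hsd3b7*, an enzyme of bile acid synthesis, rose to 693 and 676 rpbp against 348 to 798 with a median of 510.2 (log2 difference 0.42 ± 0.08, adjusted p = 0.0386) and was the only one called of 18 genes of bile acid synthesis and transport; *Cyp7a1*, their rate-limiting enzyme, was at 32.2 and 46.7 (adjusted p = 0.272). *Cbs*, which commits homocysteine to cysteine, was at 525 and 579 against 292 to 569 with a median of 358 (difference 0.56 ± 0.08, adjusted p = 0.0157), and the alanine aminotransferase gene *Gpt1* fell to 261 and 226 against 206 to 416 with a median of 343. They were 1 gene in each direction of 26 of gluconeogenesis and amino acid breakdown. *Ppp1r3c*, which targets a phosphatase to glycogen, was at 473 and 279 against 47.6 to 468 with a median of 153, with ZT18 at 417 and 468 (difference 1.24 ± 0.19, adjusted p = 0.0157; 1 of 12 glycogen genes). *Pdk4*, the kinase that turns off pyruvate dehydrogenase, was at 32.8 and 28.3 against 5.20 to 30.04 with a median of 8.92 (adjusted p = 0.0386) and was the 1 gene called of 29 of fatty acid oxidation, a list with a median of −0.30. Of 22 glucocorticoid and insulin response genes *Sgk* (now *Sgk1*), a kinase, rose to 18.4 and 16.96 rpbp against 10.6 to 17 with a median of 11.8, and the transcription factor gene *Klf9* fell to 40.1 and 36.6 against 34.6 to 90 with a median of 58.8. Without the ZT2 livers *Pdk4* and *Klf9* were not called (adjusted p = 0.0560 and 0.0542). The list counts moved with them. Higher and lower calls without ZT2 were 0 and 5 in fatty acid oxidation, where the median became −0.49, 1 and 4 in gluconeogenesis and amino acid breakdown, 3 and 0 in bile acid synthesis and transport, 1 and 0 in glycogen, and 1 and 2 in the glucocorticoid and insulin response. The fatty acid oxidation median was −0.03 without series 2 of ZT22 and −0.42 without series 1, so its size rests on the series 2 liver.

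None of 22 fatty acid synthesis genes was called (limma; 1 in each direction had an unadjusted p under 0.05). *Elovl3*, an elongase of very long chain fatty acids, had the largest difference of that list, with 1439.9 and 1388 rpbp at ZT22, above all 10 other livers at 40.3 to 1279 with a median of 284, but an adjusted p of 0.0646. No call was made in the lists of cholesterol synthesis (25 genes, 2 at an unadjusted p under 0.05), heat shock and cold-inducible genes (19, 4), ribosome biogenesis (26, 1), cytoplasmic ribosomal proteins (37, 1), interferon-stimulated genes (20, 2), sex-biased genes (16, 4), mRNA decay (17, 2) and autophagy (20, 5). Endoplasmic reticulum folding had none of 26 either, although 11 had an unadjusted p under 0.05 in the positive direction, and its median was 0.29. That median was 0.05 without series 2 of ZT22 and 0.49 without series 1. Of the 9 lists of cell type markers none held a called gene (limma), and 5 markers in all had an unadjusted p under 0.05. The hepatocyte marker *Apoa2* (apolipoprotein A-II) was below all 10 other livers at 9506 and 8537 rpbp against 10879 to 29476 with a median of 20013 (log2 difference −1.04 ± 0.25, adjusted p = 0.0785). Endothelial markers had a median of −0.14 with 7 of 8 negative, *Kdr* and *Oit3* being below all 10 other livers at 21.04 and 19.4 and 24.4 and 25.4 rpbp. Some of these lists held calls without the ZT2 livers. Fatty acid synthesis had 1 higher (*Elovl3*, also in the sex-biased list) and 1 lower, endoplasmic reticulum folding 1 and 1, and autophagy 0 and 1. Among the markers, 1 of hepatocytes and 1 of endothelial cells (*Kdr*) were then lower and 1 of cholangiocytes was higher. Heat shock, cholesterol synthesis, ribosome biogenesis, ribosomal proteins, interferon-stimulated genes and mRNA decay again had 0 calls.

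**Figure D4:**
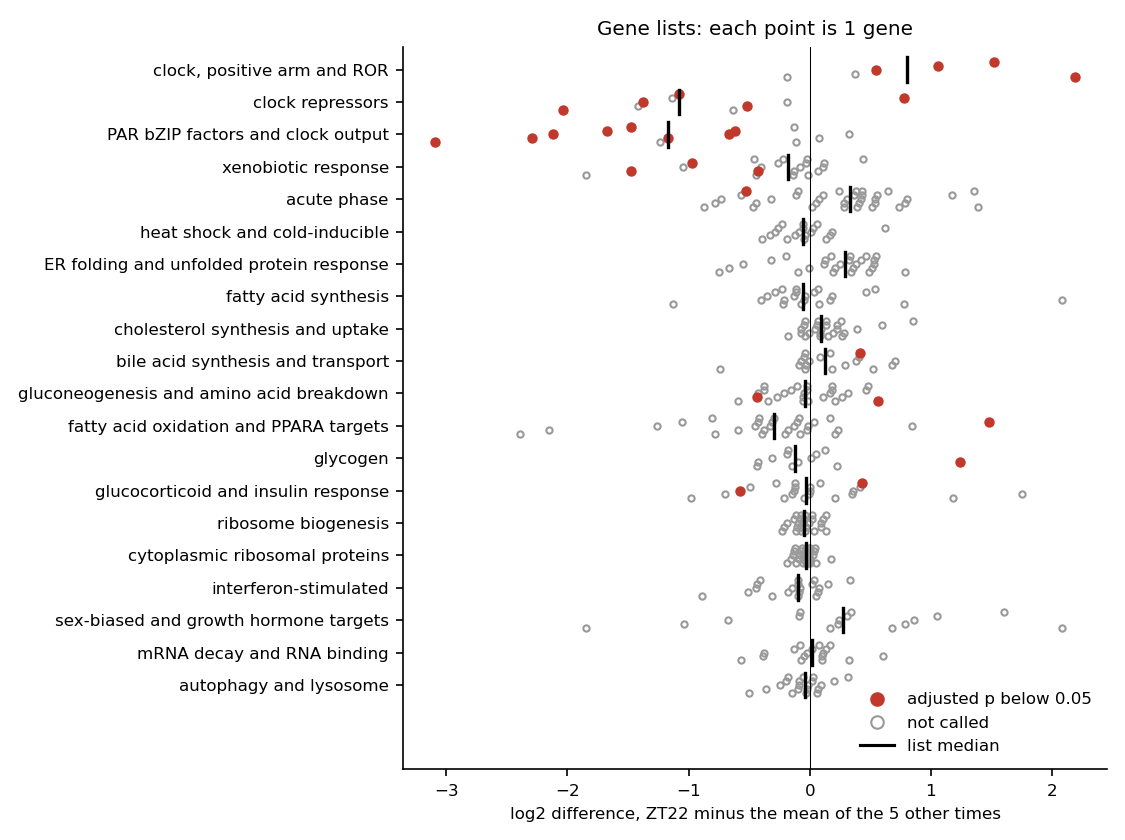
Log2 difference of ZT22 minus the mean of the 5 other times for the tested genes of 20 lists. The first list also holds the ROR receptors and *Nfil3*. Red points were called (limma, adjusted p below 0.05), open points were not, and black bars are medians. The clock lists hold most of the red points, with medians of 0.80, −1.08 and −1.17.

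Few genes were called against the time before. Against ZT18, 3 genes were higher (0.0294%) and 10 were lower (0.0981%) by limma, of 1236 at an unadjusted p under 0.05. The lower ones held *Tef* (−1.27 ± 0.12, adjusted p = 0.0174), *Wee1* (−1.46 ± 0.17), *Per3* (−1.41 ± 0.19), *Inmt* (−0.89 ± 0.11) and *Nr1i3* (−0.70 ± 0.08) as log2 differences. *Akr1c19*, *Ces3*, *Tomm40l* and *Psmb5* were also among them. The higher ones were *Rarres1* (234 and 224 rpbp at ZT22 and 78.5 and 105 at ZT18), *AK185715* and *Ngdn* (29.04 and 34.6 and 17.6 and 18.3). With median-of-ratios scaling the split was 1 higher and 9 lower. No gene was called against ZT18 with a replicate block, or when the ZT2 livers, 1 liver each of ZT2, the series 1 liver of ZT6 or ZT18, or the series 2 liver of ZT22 were left out, while 2 were called without series 2 of ZT6, 6 without series 2 of ZT18 and 49 without series 1 of ZT22.

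Against ZT2, the next time point, 169 genes were higher at ZT22 (1.66%) and 85 were lower (0.833%). Among the largest differences were the fatty acid desaturase *Scd1*, at 9231 and 5443 rpbp at ZT22 and 647 and 762 at ZT2, and *Cyp4a10*, a fatty acid hydroxylase and PPARα target, at 149.8 and 83.6 and 9.08 and 12.8. *Cyp2b9* was at 167 and 67.1 and 0.480 and 0.840. On the other side, *Onecut1*, a hepatic transcription factor, was at 8.32 and 14.2 rpbp at ZT22 and 58.9 and 74.6 at ZT2. A set of 6 genes was called against both neighbours. Of these, *Nr1i3*, *Tomm40l*, *Ces3* and *Inmt* were lower than at ZT18 and higher than at ZT2, and *Psmb5* was lower than both. The comparisons share the ZT22 livers, and the count against ZT2 was 30 or 31 without one of the ZT2 livers, 37 without the series 1 liver of ZT22, 110 without either liver of ZT6 and 147 or 149 without one of ZT14.

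The 2 ZT22 livers disagreed on acute-phase genes, which the liver makes in response to inflammatory cytokines. *Saa1* was at 115 rpbp in series 1 and 5249 in series 2, *Saa2* at 36.2 and 3262, *Lcn2* (lipocalin 2, which captures iron carriers of bacteria) at 9 and 244 and *Orm2* (an orosomucoid) at 34.6 and 279. In the 8 livers of ZT6 to ZT18, *Saa1* ranged from 57.8 to 233, and in those of ZT2 it was at 14312 and 12918. Series 1 thus lay among the livers of ZT6 to ZT18, and series 2 between them and ZT2. Of 36 acute-phase genes tested, 19 were at least 2-fold higher in series 2 and 0 at least 2-fold higher in series 1. Over all genes tested these shares were 1.62% and 1.50%. In the pairs of the other times, the count of acute-phase genes at least 2-fold higher in series 2 was 0 at ZT2, 4 at ZT6, 2 at ZT10, 0 at ZT14 and 3 at ZT18, and that in series 1 was 2, 0, 2, 4 and 2 in the same order.

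Abundant plasma proteins were also higher in series 2. *Hp* (haptoglobin, which binds free hemoglobin) was at 4734 and 12527 rpbp, *Hpx* (hemopexin, which binds heme) at 5252 and 11846, and the fibrinogen chains *Fga*, *Fgb* and *Fgg* at 6177 and 10548, 6404 and 11724 and 4582 and 7653. The fibrinogen genes differed by less than 2-fold, and *Fga* and *Fgg* of series 1 already lay above the ZT6 to ZT18 range. *Lrg1* was at 569 and 1959, *Fgl1* at 288 and 1837 and the signal transducer *Stat3* at 63.5 and 102. Of the 36 genes, 19 had series 1 within and series 2 above the range of the 8 livers of ZT6 to ZT18, beside 9.07% of all genes tested. Other members did not part the livers. *Il6ra*, the receptor chain of interleukin 6, was at 19.2 and 18.9 rpbp and was the only acute-phase gene called against the other times (log2 difference −0.53 ± 0.10, adjusted p = 0.0333). *Serpina3k* was at 19791 and 21708 and *Serpina3m* at 6424 and 6628. The list's median log2 difference between ZT22 and the other times was 0.34, which averages these unlike livers. It was −0.28 without series 2 of ZT22 and 0.84 without series 1, so its sign rests on the series 2 liver. Without the ZT2 livers 4 genes were called higher and 1 lower, with a median of 0.61. *Saa1* and *Saa2* are near-identical in sequence, so their division is uncertain.

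**Figure D5:**
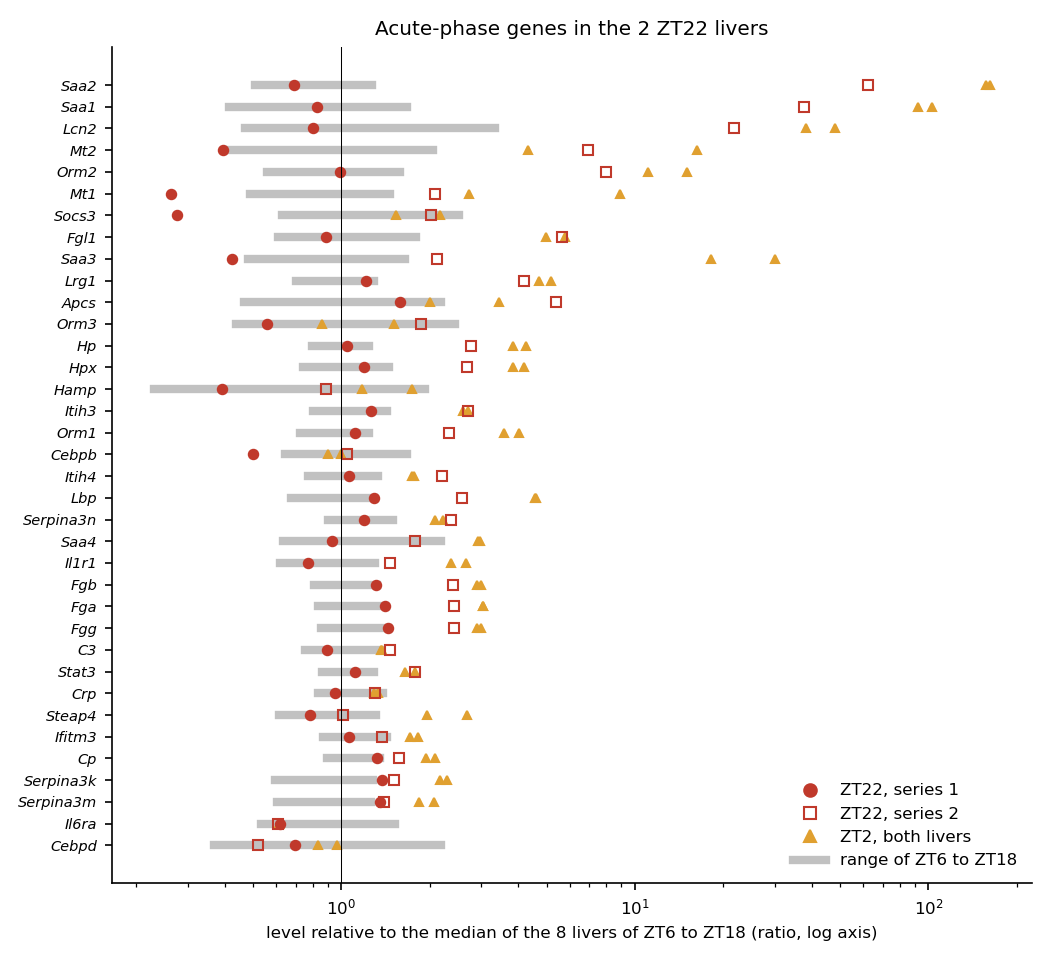
Level of each of 36 acute-phase genes relative to the median of the 8 livers of ZT6 to ZT18 (ratio, log axis). Grey bars give the range of those 8 livers, orange triangles both ZT2 livers, and red the ZT22 livers (filled, series 1; open, series 2). 19 genes had the filled point inside and the open point above the grey bar.

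The difference between the series at ZT22 was then tested against that at the other times (limma, 4 residual degrees of freedom). The disagreement on acute-phase genes was known when the test was chosen, so their p-values are not independent support for it. Genes higher in series 2 numbered 4 (0.0392%), and 0 were higher in series 1, with 579 genes at an unadjusted p under 0.05 in either direction. *Dnajc12*, a co-chaperone of the HSP40 family, was at 16.04 and 79.8 rpbp at ZT22, 92.3 and 76.7 at ZT2 and 12.9 to 20.7 in the other livers (difference of differences −2.27 ± 0.18 on the log2 scale, series 1 minus series 2, adjusted p = 0.0188). *Saa2* differed by −6.04 ± 0.64 (adjusted p = 0.0477), *Lrg1* by −1.75 ± 0.18 (adjusted p = 0.0477) and *Slc3a1*, the cystine transporter subunit, by −1.73 ± 0.19 (adjusted p = 0.0477) with 74 and 207 rpbp. *Saa1* differed by −4.99 ± 0.57 and was not called (adjusted p = 0.0622). This test compares 1 liver with 1 liver at ZT22, and no gene was called without the ZT2 livers or without any 1 liver of ZT6 or ZT14. Without either ZT2 liver the count was 1, and without either ZT18 liver it was 2.

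By size alone, the largest series differences at ZT22 included genes outside the acute phase that were not called. *Selenbp2* was at 21.9 and 1179 rpbp (adjusted p = 0.363), *Cyp26b1*, which degrades retinoic acid, at 16.2 and 0.360 (adjusted p = 0.363) and *BC042789* at 20.8 and 0.440 (adjusted p = 0.560). *Pcdhb11*, a protocadherin, was at 101 in series 2 of ZT22 and 0.120 in series 1 (adjusted p = 0.874). The only other livers in which it exceeded 1 rpbp were the ZT2 livers (93.9 and 91.4) and series 2 of ZT18 (148). *DQ713456*, *DQ555555* and *DQ695197* were each listed at 0 in 1 of the ZT22 livers and at 12.2, 19.1 and 15.96 rpbp in the other.

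Lists other than the acute phase also parted the ZT22 livers. Of 26 genes of endoplasmic reticulum folding, 25 were higher in series 2, and 11 had series 1 within and series 2 above the range of ZT6 to ZT18, beside 4742 and 925 (9.07%) of all 10198 genes tested. Among the 11, *Sdf2l1* was at 56 and 136 rpbp, *Hsp90b1* (the HSP90 chaperone of that compartment) at 873 and 1244 and the disulfide isomerase gene *Pdia4* at 339 and 475. Of 37 cytoplasmic ribosomal protein genes, 34 were higher in series 2, and 3 had series 1 within and series 2 above the range, a share no higher than the 9.07% of all genes. Fatty acid synthesis genes went the other way. Of 22, 6 were at least 2-fold higher in series 1, and 10 had series 1 within and series 2 below the range, beside 9.62% of all genes tested. *Pklr* (pyruvate kinase of liver) was at 692 and 224 and *Elovl6* (a fatty acid elongase) at 143 and 44.3, both with series 2 below that range. *Mod1* (now *Me1*, malic enzyme) was at 311 and 116, with both livers within it, and *Thrsp* at 1098 and 412, with both below it. Fatty acid oxidation and PPARα targets had 13 of 29 such genes, among them *Fabp1* (the liver fatty acid binding protein) at 15531 and 10435. Across all 10198 genes, the difference of series 2 minus series 1 at ZT22 correlated with that of ZT2 minus the livers of ZT6 to ZT18 (r = 0.434). With the remaining times in the same role, r was 0.343 for the ZT18 pair and between −0.18 and 0.0795 for those of ZT6, ZT10 and ZT14. There the pair's own livers were left out of the livers compared with ZT2, which left 6 in place of 8. These correlations are descriptions across genes of the same livers. Neutrophil and Kupffer cell markers were higher in series 2 too, at the summed levels given above, as were 2 of 3 red cell markers, the globin genes *Hba-a2* (33.8 and 144 rpbp) and *Hbb-b1* (63.3 and 239.7), while *Alas2* was lower (256 and 185), and their part in the result was not tested.

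The clock lists were compared between the ZT22 livers in the same way. *Arntl*, *Clock*, *Per2*, *Per3*, *Cry2*, *Tef*, *Usp2* and *Upp2* differed by less than 1.3-fold between the ZT22 livers, and the lowest ratio of series 2 to series 1 in the list of 6 genes with the positive arm was 0.621 (*Npas2*). The largest ratios in the other clock lists were 4.27 for *Gm129* at 0.440 and 1.88 rpbp, and 2.01 for *Alas1* (the first enzyme of heme synthesis) at 66.9 and 134. *Cry1* had a ratio of 0.693 and *Dbp*, at 1.48 and 2.40 rpbp, one of 1.62. As a whole, the correlation across genes of log2(rpbp + 1) was 0.975 between the ZT22 livers. It was 0.977 and 0.975 between series 1 of ZT22 and the ZT18 livers and 0.950 and 0.952 with those of ZT2. For series 2 of ZT22 it was 0.966 and 0.973 with ZT18 and 0.970 and 0.971 with ZT2.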

How the data were processed

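Poly(A) RNA of 12 mouse liver samples was sequenced (TruSeq v2). Per the labels and methods, the authors used CASAVA 1.8, mapped to mm9 with TopHat, kept unique alignments and summed base coverage over the merged exons of all isoforms, without strand. The deposited signal is this coverage divided by exon length and scaled by the authors to 10000000 uniquely mapped sequences. The deposited rhythm score, phase and p-value columns of the authors were not used. The signal is not a count, so no counting interval is given. The depth limits values of a few rpbp.

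Signal was multiplied by 4. A gene entered the tests if any of its 12 values exceeded 8 rpbp, and limma 3.58.1 (R 4.3.3, Python 3.11.15) was fitted to log2(rpbp + 1), with 1 mean per time, a mean-variance trend and Benjamini-Hochberg adjustment. The series difference at ZT22 was an interaction term. Fold changes are ratios of mean levels, whereas log2 differences compare means of logs, so they need not match for genes that vary over the day. Through the added 1, log2 differences also understate changes of low genes. Named genes were the 12 largest called differences in each direction with both ZT22 values outside all others and no value of 0, list members, and the 10 largest series differences; other genes called against ZT18 or ZT2 were picked after their values were seen. Some genes that meet this rule are not reported here. The members, lists and motifs were chosen with earlier results of these data known. Of 510 listed entries, 496 were found by symbol, older symbol or RefSeq synonym. Places are those of GENCODE for mm9. In a test on simulated data of the comparison with the 5 other times (10198 genes), 27, 43, 45 and 50 of 50 genes each were called at 1.5, 2, 3 and 6-fold, and 2 of 9998 unchanged genes. Scaling, pseudocounts (0.1, 4), minimums (16 rpbp, none), the trend, a replicate block, 2 groups, each sample and the ZT2 livers left out were tried.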

Additional observations from a re-analysis of the deposited data

Results flagged for a closer look

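The difference between the 2 ZT22 livers departed from the series differences at the other times in 4 genes by the interaction term (limma, adjusted p below 0.05; series 1 minus series 2, log2 scale). It was −2.27 for *Dnajc12*, −6.04 for *Saa2*, −1.75 for *Lrg1* and −1.73 for *Slc3a1*. In each of them series 1 of ZT22 was at the level of ZT6 to ZT18, with 16.04, 36.2, 569 and 74 rpbp, and series 2 lay above every liver of ZT6 to ZT18. The disagreement on acute-phase genes, *Saa2* and *Lrg1* among them, was known when the test was chosen. With 1 liver per series, no replicate stands behind either ZT22 value, and the cause was not tested. Groups of 2 were not searched for outlying samples.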

How the results depend on the processing

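The 154 calls against the 5 other times became 81 with no expression minimum, 96 with a replicate block, 0 with 2 groups and 362 with the ZT2 livers left out, an alternative chosen after seeing the data. They were 20 to 162 with 1 sample left out. The 13 calls against ZT18 became 4 without the mean-variance trend, 0 with the replicate block (limma, 1236 genes at an unadjusted p under 0.05 in the reported fit) and 0 without the ZT2 livers, and 0 to 49 with 1 sample left out. The 254 against ZT2 became 138 with no minimum, 148 with the replicate block and 30 to 345 with 1 sample left out. The 4 calls of the series difference were 1 with a pseudocount of 0.1, 11 with no minimum, 0 without the trend, 0 without the ZT2 livers and 0 to 5 with 1 sample left out, and 4 with no replicate block. Leaving out a ZT22 liver gives no value there. The 376 separated genes were 596 with no minimum, 1017 without the ZT2 livers and 393 to 1517 with 1 sample left out, the highest counts coming from the loss of a ZT22 liver, which leaves 1 value to separate. No named gene called against the other times changed direction under any of these alternatives. Of the 51 such genes, 51 lost their call with 2 groups, 13 with the block, 36 without series 2 of ZT22 and 29 without series 1. The cause of these changes was not tested. The replicate numbers are shared by the times. Over 15 pairs of times the correlation of the series differences was −0.153 to 0.206. It passed 0.1, the limit set for a pairing, in 2 of them. By this limit same-numbered samples did not deviate together in most pairs of times, but did in those 2.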
